A study of Mus musculus with 12 samples.

Results

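MHC class II presentation genes were followed in sorted mouse myeloid progenitors. The set was chosen by gene symbol and held 9 genes of the 33924 in the count table: Cd74, H2-Aa, H2-Ab1, H2-Eb1, H2-DMa, H2-DMb1, H2-DMb2, Ciita and Ctss. RNA came from bone marrow of femurs and tibias, sorted as live cells with c-Kit and without lineage markers or Sca1, and was counted by 3' tag sequencing. The 12 libraries formed 4 groups of 3. The old and young controls were Mx+ Wt1+/+, and the old and young hets were Mx+ Wt1fl/+, so every library shared the Mx+ genotype. That label commonly stands for the Mx1-Cre transgene, whose promoter responds to interferon, but the labels do not spell it out, and they give no inducing agent and state that there was no treatment. The labels join the word chronic to every old library and acute to every young one, so age cannot be told apart from whatever these words mean. Nothing in the labels shows that the replicates were different animals, so the p-values reflect only how much these samples varied, which may be technical. Wt1 encodes a zinc finger transcription factor, and the study set the floxed genotype against controls at each age.

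MHC class II molecules carry peptides from endocytosed proteins to the cell surface, where CD4+ T cells read them. The alpha chain encoded by H2-Aa pairs with the beta chain of H2-Ab1, and H2-Eb1 encodes another beta chain. Cd74, the invariant chain, fills the groove of a new molecule until proteases such as cathepsin S, encoded by Ctss, trim it. The DM heterodimer, from H2-DMa and a DMb chain, then exchanges the remaining fragment for a peptide. Ciita is the transactivator on which transcription of most of these genes depends. Dendritic cells, B cells and macrophages are the cells best known for high class II expression, and stem and progenitor cells of the marrow have also been described to carry it.

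Total counts ran from 645460 in young control 2 to 9645502 in old control 1. Levels are given as CPM, the counts scaled to a common library total, and since a 3' kit counts about 1 tag a transcript they were compared between genes without a length correction. A count of 3, the floor used for genes at 0, stood for 0.275 CPM in old control 1 and for 5.10 CPM in young control 2, so that several of these genes lay near what the shallowest library could show. Kit, the marker the cells were sorted for, was counted in every library, at 96.5 to 291 CPM. Library old control 1 stood apart from the other 11. Ly6a, which encodes the Sca1 antigen that the sort was set to leave out, was at 69.8 CPM there and at no more than 1.18 CPM elsewhere, with 0 counts in 9 of the 11. The stem cell transcription factor genes Hlf and Meis1 were at 270.2 and 388 CPM there, against at most 34.5 and 53.4 CPM in any other library. The summed level of 14 stem and multipotent progenitor markers was 2318 CPM in it and 564 to 1007 CPM in the others, and all 14 were highest in it. The part of these cells or markers in the class II levels was not tested, and results of the tests that rest on old control 1 are given with and without it. Xist was high and Ddx3y at 0 counts in 5 libraries, namely the 3 young hets, young control 3 and old het 1. Both the genotype groups and the age groups therefore also differed in these sex-linked genes, old controls from young controls included. Mitochondrial rRNA made up 1.70% to 2.38% of counts in the old controls and 4.35% to 8.22% in the young controls.

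The 9 genes were low in most libraries and very uneven between them. Their summed level was 904 CPM in old control 1, and 190.0 and 195 CPM in old controls 2 and 3. The old hets were at 108, 204 and 161 CPM. The young controls were at 91.1, 68.0 and 99.4 CPM and the young hets at 98.8, 81.8 and 99.2 CPM. All old libraries therefore lay above all young ones, by little in the case of old het 1, and old control 1 was 4.42 times the next highest library. Without old control 1 the old and young libraries still did not overlap, but the old control and old het ranges did. This order held for the sum only, since no member alone had all old libraries above all young ones. In old het 1, the lowest old library, H2-DMb1 and Ctss made up 48.1% and 27.1% of the sum. How often sums of other genes show this order was not counted.

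**Figure D1:**
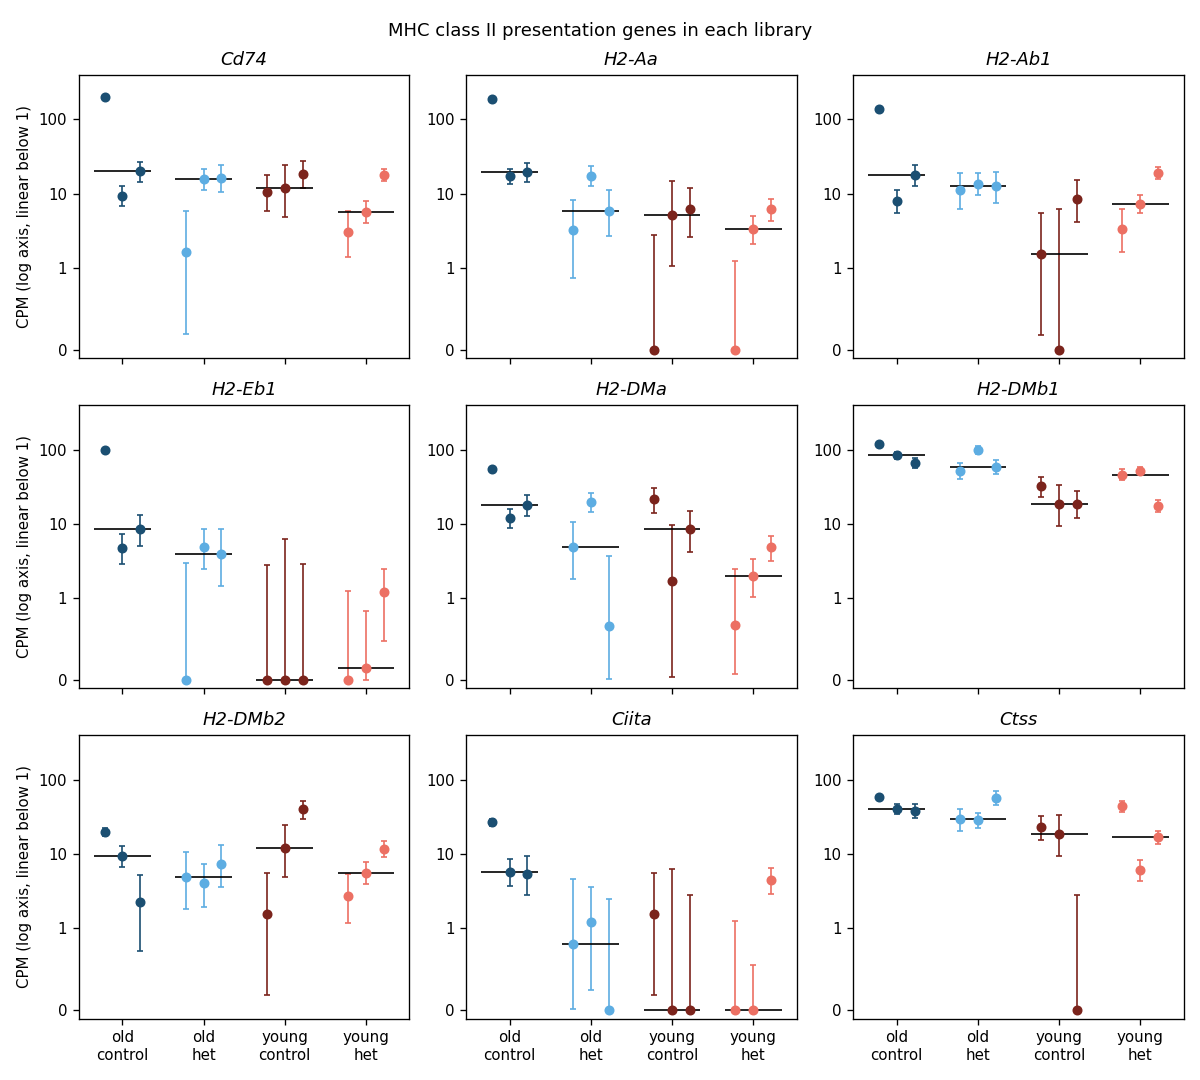
Level of each of the 9 genes in each library, in CPM on a log axis that is linear below 1, by group. Points are libraries 1 to 3 from left to right with exact 95% Poisson intervals of the count (counting error only), and bars are group medians. Old control 1 is the highest library for 8 of the 9 genes, with H2-DMb2 the exception.

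The composition of this sum also differed. The 4 genes that encode the chains, Cd74, H2-Aa, H2-Ab1 and H2-Eb1, made up 69.4% of it in old control 1 and between 6.46% and 44.5% in the other libraries. Their summed level was 627 CPM in old control 1 and between 6.38 and 65.4 CPM elsewhere. The sum of the 3 DM genes was also highest in old control 1, but by less, at 192 CPM against 32.3 to 123 CPM elsewhere. It was 21.2% of the total there, against 34.0% to 72.5% in the other libraries. DM transcripts and chain transcripts were thus in different ratios in old control 1 and in the rest.

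**Figure D2:**
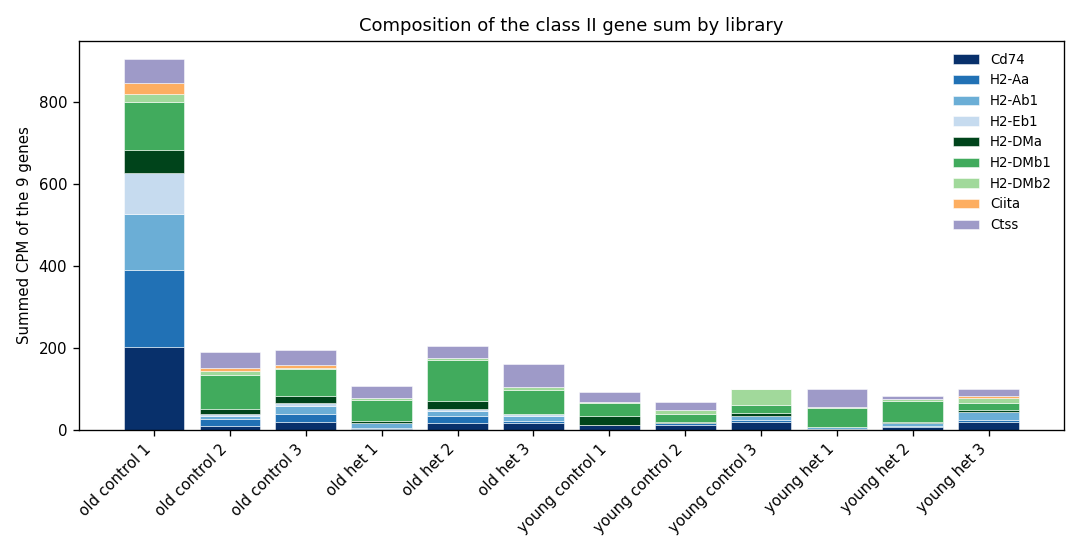
Summed CPM of the 9 genes in each library, stacked by gene. Blue segments are the 4 chain genes, green segments the 3 DM genes. Old control 1 reaches 904 CPM and is mostly chain genes, while the other 11 libraries lie between 68.0 and 204 CPM.

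Cd74, the invariant chain, was at 202, 9.43 and 19.9 CPM in old controls 1 to 3, from 2203, 40 and 45 counts. It was at 1.62, 15.6 and 16.4 CPM in the old hets, from 2, 39 and 25 counts. Young controls had 10.6, 11.9 and 18.3 CPM and the young hets 3.02, 5.71 and 17.9 CPM. Apart from old control 1 the 4 groups overlapped throughout.

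H2-Aa, the alpha chain, was at 187, 17.2 and 19.5 CPM in the old controls and at 3.23, 17.2 and 5.91 CPM in the old hets. Young controls 2 and 3 had 5.10 and 6.11 CPM and young hets 2 and 3 had 3.30 and 6.14 CPM, while library 1 of each young group had 0 counts. All 3 old controls lay above all 6 young libraries, an order that was not counted over the tested genes.

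H2-Ab1, the partner beta chain, was at 138, 8.02 and 17.7 CPM in the old controls and at 11.3, 13.6 and 12.5 CPM in the old hets. Young controls had 1.52, 0 and 8.41 CPM, from 2, 0 and 11 counts, and the young hets 3.36, 7.36 and 18.9 CPM. Old control 2 lay just below young control 3, so these groups overlapped.

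H2-Eb1 was the member closest to absence in young progenitors. It had 0 counts in all 3 young controls, with upper 95% Poisson limits of 2.80, 6.27 and 2.82 CPM in libraries 1 to 3. The young hets had 0, 1 and 7 counts. The old controls had 99.9, 4.72 and 8.40 CPM, from 1091, 20 and 19 counts, and the old hets 0, 4.81 and 3.94 CPM. It was counted in 5 of 6 old libraries and in 2 of 6 young ones.

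Ciita, the transactivator, was at 26.6, 5.66 and 5.31 CPM in the old controls, from 290, 24 and 12 counts. Old hets gave 1, 3 and 0 counts, young controls 2, 0 and 0, and the young hets 0, 0 and 26, the last of these at 4.43 CPM. Every old control lay above every other library for Ciita, an order that was not counted over the tested genes.

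Transcription of class II genes is known to run through a promoter module in which an X box, bound by the RFX complex, stands a fixed distance before a Y box, bound by NF-Y. RefSeq promoter windows of build GRCm38.p6, from 250 bases before to 50 bases after a start site, were found for 6 of the 9 genes, with a pair of windows for H2-DMa. None was found for Cd74, H2-Ab1 and Ciita. The stretches below are shown because they hold this module in 2 genes that were high in old control 1 (H2-Aa and H2-Eb1) and in H2-DMb1, which was not high there to the same degree. Capitals mark the X core first and the Y core ATTGG second.

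H2-Aa, chr17:34287827-34287916, minus strand: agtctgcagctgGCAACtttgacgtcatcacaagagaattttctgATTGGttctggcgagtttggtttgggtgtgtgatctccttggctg

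H2-Eb1, chr17:34305763-34305852, plus strand: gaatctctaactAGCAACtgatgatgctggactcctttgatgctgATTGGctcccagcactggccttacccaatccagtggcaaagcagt

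H2-DMb1, chr17:34153084-34153173, plus strand: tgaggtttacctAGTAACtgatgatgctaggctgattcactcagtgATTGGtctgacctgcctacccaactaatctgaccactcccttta

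The cores started 33, 33 and 34 bases apart in H2-Aa, H2-Eb1 and H2-DMb1. The Y core ATTGG, on either strand, was in 5 of the 7 windows, and in 37.4% of all 32851 windows. The X core AGNAAC was in 3 of 7, and in 48.1% of all. An X core followed 25 to 45 bases later on 1 strand by a Y core was in 2 of 7, those of H2-Eb1 and H2-DMb1, and in 1.14% of all. H2-Aa joined them with the shorter core GNAAC, chosen after its sequence was seen and contained in AGNAAC. That pair was in 3 of 7 windows and in 3.41% of all, while GNAAC alone was in 84.8%. The windows hold these letters, and no binding was measured here.

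H2-DMb1 and H2-DMb2 are near-identical neighbours that both encode a DM beta chain, and reads could be divided between them by the counting. Their promoter stretches were identical at 80 of 90 bases when set on the Y core, without gaps; that of H2-DMb2 is shown for comparison with H2-DMb1 and has ATTGG in capitals only.

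H2-DMb2, chr17:34145113-34145202, plus strand: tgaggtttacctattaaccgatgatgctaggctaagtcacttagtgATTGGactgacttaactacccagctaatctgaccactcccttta

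H2-DMb1 was the highest of the 9 genes in most libraries outside old control 1. It was at 118, 83.7 and 66.3 CPM in the old controls and at 51.8, 99.8 and 57.8 CPM in the old hets. Young controls had 31.9, 18.7 and 18.3 CPM and the young hets 45.7, 51.8 and 17.4 CPM. Every old library was above every young control, while young het 2 was level with old het 1. This order was not counted over the tested genes.

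H2-DMb2 did not share this order. Its highest level was 39.7 CPM in young control 3, from 52 counts, and young controls 1 and 2 had 1.52 and 11.9 CPM. The old controls had 19.7, 9.19 and 2.21 CPM. The old hets had 4.85, 4.01 and 7.22 CPM and the young hets 2.69, 5.56 and 11.6 CPM. All 4 groups overlapped.

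H2-DMa, the DM alpha chain, was at 54.1, 11.8 and 17.7 CPM in the old controls and at 4.85, 19.6 and 0.657 CPM in the old hets. Young controls had 21.3, 1.70 and 8.41 CPM and the young hets 0.672, 1.95 and 4.77 CPM. Its group ranges overlapped, except that all 3 young hets were below all 3 old controls. The share of tested genes with that order was not counted.

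Ctss, the cathepsin, was at 58.2, 40.3 and 37.6 CPM in the old controls and at 29.1, 28.5 and 56.5 CPM in the old hets. Young controls had 22.8, 18.7 and 0 CPM and the young hets 43.3, 6.01 and 16.9 CPM. Old control 1 was only slightly above old het 3, and the 3 old controls were above the 3 young controls.

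The members differed in how far old control 1 stood out. Against the mean of old controls 2 and 3 it was 13.8 times as high for Cd74, 10.2 for H2-Aa, 10.7 for H2-Ab1 and 15.2 for H2-Eb1. Ratios this high or higher were held by 0.377%, 0.547%, 0.528% and 0.330% of the 10604 tested genes, whose median was 0.990. Ciita was at 4.84 times, H2-DMa at 3.67 and H2-DMb2 at 3.45. H2-DMb1 and Ctss were at 1.57 and 1.49, values reached by 22.1% and 24.6% of tested genes. These ratios describe 1 library and carry no test.

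Markers of other cells were read in the same library. Of the 9 members 8 were highest in old control 1, against 16.1% of all tested genes. The 15 dendritic cell genes summed to 744 CPM in it and to 339 to 720 CPM elsewhere, and 9 of the 15 were highest in it. Among them Xcr1, a receptor of cross-presenting dendritic cells, was at 21.8 CPM, while Siglech and Ccr9, known from plasmacytoid dendritic cells, were at 10.6 and 11.8 CPM. Tcf4 and Zbtb46, of the same list, were not highest in it. Their group means were 278 (SD 112) and 24.8 (SD 13.96) CPM in old controls, against 440 and 36.9 CPM in young controls. Without old control 1 their fitted log2 changes in old against young controls were -1.03 (SE 0.39) and -0.42 (SE 0.56). These group values do not give their levels in old control 1, and their part in its sum of 744 CPM is not shown. The 14 detected B cell genes summed to 542 CPM against 166 to 425 CPM, and 2 of them were highest in it. Dntt, which acts in early lymphoid progenitors, supplied 353 CPM of the sum. Cd79a had 0 counts in old control 1, but also in the other old libraries and in the young controls. The 11 detected T and NK cell genes summed to 179.9 CPM against 25.5 to 154 CPM, with 4 of them highest there. The 12 detected monocyte and macrophage genes went the other way, with 819 CPM in old control 1 and 1025 to 1974 CPM in the rest, although Lyz2 was at 94.2 CPM. In bulk RNA a larger number of class II expressing cells and more RNA in each cell cannot be told apart, and the part of any of these markers in the class II levels was not tested.

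**Figure D3:**
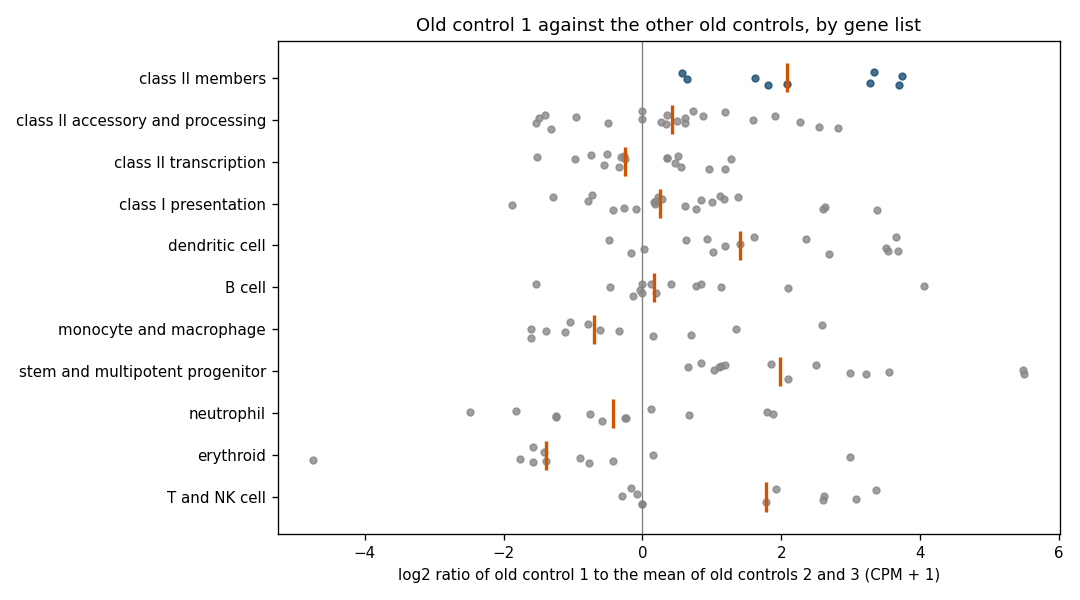
Ratio of old control 1 to the mean of old controls 2 and 3 for each detected gene of the class II set and of 10 other lists, as log2 of CPM + 1. Grey and blue points are genes with random vertical spread, and orange bars are list medians. The class II members have a median of 2.09 and the stem and multipotent progenitor markers one of 1.97. T and NK cell genes have a median of 1.78 and dendritic cell genes one of 1.40. The class II transcription, monocyte, neutrophil and erythroid medians are below 0.

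Wt1 genotype was compared in old progenitors first. All 9 genes had lower fitted levels in old hets than in old controls, with a median log2 change of -2.13 against -0.05 over all tested genes, and none passed the test. By edgeR's quasi-likelihood F test with Benjamini-Hochberg adjustment all 9 had an adjusted p of 0.999. At an unadjusted p under 0.05 there were 5, namely Cd74, H2-Aa, H2-Ab1, H2-Eb1 and Ciita, and limma-voom and DESeq2 also called 0 members, although DESeq2 gave no adjusted p for H2-Aa. Over all genes the test called 0% at this comparison, with 380 at an unadjusted p under 0.05 and 0 by DESeq2 or limma-voom.

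The log2 change was -2.75 (SE 0.93) for Cd74, -3.03 (SE 1.03) for H2-Aa and -2.13 (SE 0.91) for H2-Ab1. These rested on old control 1. Without it Cd74 came to -0.36 (SE 0.94), H2-Aa to -1.03 (SE 1.26) and H2-Ab1 to -0.03 (SE 1.03). H2-Eb1 went from -3.62 (SE 1.26) to -1.11 (SE 1.74), and it passed the filter on low counts mainly through the old controls. H2-DMb1 and Ctss were near 0 with all libraries, at -0.35 (SE 0.44) and -0.26 (SE 0.76), and at -0.10 and -0.04 without old control 1. H2-DMa was at -1.69 and H2-DMb2 at -0.98, and without old control 1 at -0.77 and -0.12.

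Ciita was the only member whose old control and old het libraries did not overlap, with all old hets lower. Of tested genes 5.99% had all old hets below all old controls. Ciita passed the filter on low counts through the old controls alone, so this separation and the ratios below were partly set by the filter. Pooled over libraries, its 326 counts in old controls against 4 in old hets gave a ratio of 24.6 (95% interval 9.51 to 90.7, exact, counting error only). Without old control 1 it was 36 counts against 4, a ratio of 7.27 (2.61 to 28.1). The fitted log2 change was -4.09 (SE 1.74) with all libraries and -2.89 (SE 2.02) without it. Neither passed, with adjusted p-values of 0.999 and 0.9997 by edgeR's quasi-likelihood test.

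Young hets and young controls did not differ past the threshold for any member, and 0.424% of all tested genes passed in that comparison (45 genes). None of the 9 reached an unadjusted p of 0.05, against 1488 of all tested genes. DESeq2 and limma-voom called 0 members, against 346 and 23 of all tested genes. The log2 change was -2.09 (SE 1.03) for H2-DMa, 1.41 (SE 1.01) for H2-Ab1 and -1.42 (SE 1.002) for H2-DMb2. H2-DMb1 was at 0.72 (SE 0.47), Ctss at 0.69 (SE 0.81), Cd74 at -0.61 (SE 0.93) and H2-Aa at -0.10 (SE 1.19). Ciita, at 1.32 (SE 1.85), rested on young het 3, which held all 26 of its counts in young hets; without that library the value was -4.01. No fold is given for H2-Eb1, since young controls had 0 counts and the young hets' mean of 0.448 CPM lay under the 0.933 CPM that 3 counts over the young controls stand for. Of the other 8 members 4 were above 0 and 4 below, with a median of 0.29 against 0.08 over all tested genes.

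The effect of the floxed allele averaged over both ages called 0% of tested genes (615 at an unadjusted p under 0.05, 2 by DESeq2 and 0 by limma-voom) and none of the 9 members. Cd74 and H2-DMa reached an unadjusted p under 0.05, with log2 values of -1.68 (SE 0.65) and -1.89 (SE 0.71) and adjusted p-values of 0.778 and 0.756 by edgeR's quasi-likelihood test. The value of Cd74 rested on old control 1 and came to -0.48 (SE 0.63) without it. That of H2-DMa kept more of its size, at -1.42 (SE 0.79). Neither was then at an unadjusted p under 0.05. The difference between the old and the young effect was tested as an interaction. It called 0.0849% of tested genes (9 genes) and none of the members. At an unadjusted p under 0.05 were 3 members, and 1356 of all 10604 tested genes. By DESeq2 or limma-voom 0 members were called. Over all tested genes DESeq2 called 274 here and limma-voom 2. H2-Ab1 had the smallest p of the 9, with a difference of -3.55 (SE 1.35) and an adjusted p of 0.265, and came to -1.48 (SE 1.42, adjusted p = 0.783) with old control 1 left out. A difference between ages in the effect of genotype was therefore not shown for any member.

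Age within controls was the comparison in which members passed. In old controls 4 of 9 rose relative to young controls and none fell, and 6.98% of all tested genes passed in either direction (296 higher and 444 lower). The 4 were H2-Aa, H2-Ab1, H2-Eb1 and H2-DMb1. The median log2 change of the members was 2.49, also with H2-Eb1 at its bound, and that of all tested genes 0.22. In 5 of 9 members, H2-Aa, H2-Eb1, H2-DMb1, Ciita and Ctss, every old control was above every young control, which held for 19% of tested genes. The places of Ciita and H2-Eb1 among them were partly set by the filter on low counts. Ciita passed it through the old controls alone, and H2-Eb1 mainly through them.

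**Figure D4:**
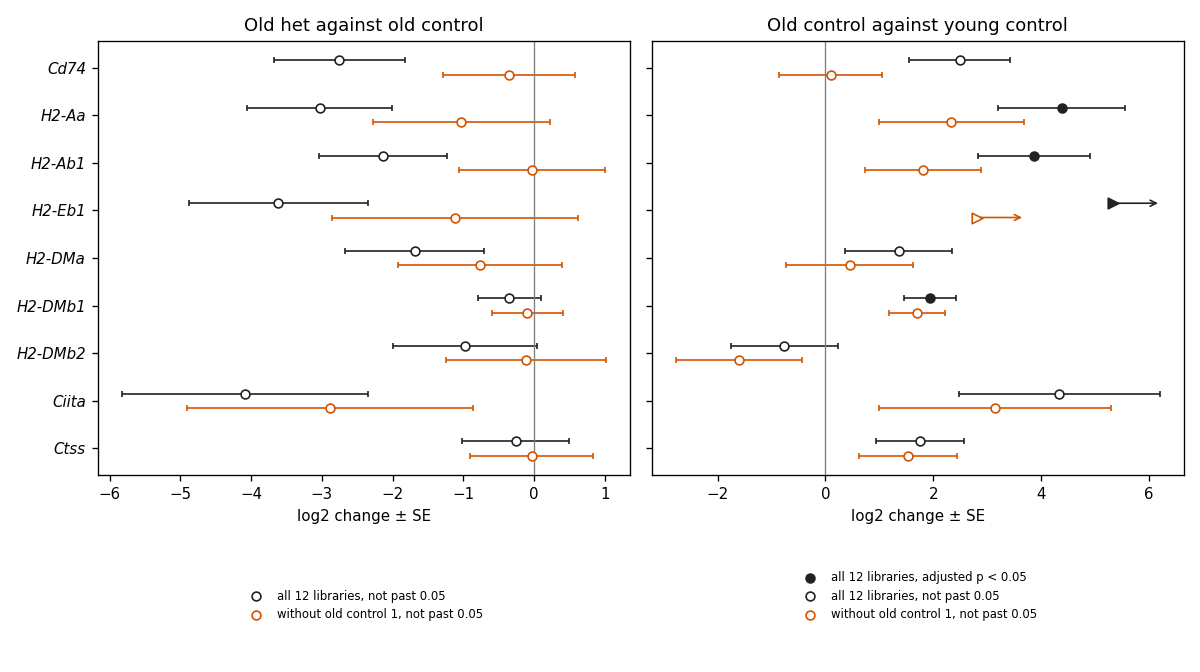
Fitted log2 change with SE for each gene, for old het against old control (left) and old control against young control (right), with all 12 libraries in black and without old control 1 in orange. Filled symbols have an adjusted p under 0.05, and the arrows for H2-Eb1 on the right are lower bounds because young controls had 0 counts. The changes of the chain genes move toward 0 without old control 1, while that of H2-DMb1 goes from 1.94 to 1.70.

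H2-DMb1 rose by a log2 change of 1.94 (SE 0.48, adjusted p = 0.0186 by edgeR's quasi-likelihood test), from 22.98 ± 7.72 CPM (SD, n = 3) in young controls to 89.3 ± 26.3 CPM in old controls. Without old control 1 the size was nearly kept, at 1.70 (SE 0.52), and the call was lost at an adjusted p of 0.0853. Counted as 1 gene with its paralog, H2-DMb1 and H2-DMb2 together came to 1.28 (SE 0.42, adjusted p = 0.0717), which did not pass. In the controls with Ddx3y counts alone the 3 old libraries, from 66.3 to 118 CPM, lay above the 2 young ones, at 31.9 and 18.7 CPM. How many tested genes had this order was not counted. H2-DMb1 was not called with Xist in the fit, and the part of the sex-linked difference in its rise was not tested. Of the 4 called members H2-DMb1 was the one whose rise rested least on old control 1.

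H2-Aa rose by 4.39 (SE 1.18, adjusted p = 0.0303 by edgeR's quasi-likelihood test), from 3.74 ± 3.28 to 74.6 ± 97.5 CPM (SD, n = 3), and H2-Ab1 by 3.87 (SE 1.04, adjusted p = 0.0303), from 3.31 ± 4.48 to 54.6 ± 72.5 CPM. Without old control 1 they came to 2.34 (SE 1.34, adjusted p = 0.385) and 1.82 (SE 1.08, adjusted p = 0.404). H2-Eb1 was at least 40.4-fold higher in old controls, against a floor of 3 counts over the young controls (0.933 CPM), with an adjusted p of 0.0152. That call and the bounds were partly set by the filter on low counts, which H2-Eb1 passed mainly through the old controls. Without old control 1 it was at least 7.03-fold higher and not called, with an adjusted p of 0.200. None of the 4 calls was kept without old control 1, where 315 of 10883 tested genes passed.

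The calls also rested on the few young controls. Without young control 1 only H2-DMb1 passed, without young control 2 only H2-Eb1, and without young control 3 the other three but not H2-DMb1, whose adjusted p was then 0.0554. DESeq2 called H2-Ab1, H2-Eb1 and H2-DMb1 and gave no p for H2-Aa; limma-voom called none of the 9. With Xist as a covariate H2-Ab1 alone passed, and with mitochondrial rRNA added to the fit neither a member nor any other gene passed.

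The other 5 members did not pass in controls. Cd74 was at 2.49 (SE 0.94, adjusted p = 0.113 by edgeR's quasi-likelihood test) and at 0.10 (SE 0.95) without old control 1. Ctss was at 1.75 (SE 0.82) and at 1.53 (SE 0.91) without it, with group means of 45.4 ± 11.2 and 13.8 ± 12.1 CPM (SD, n = 3). Ciita was at 4.34 (SE 1.86). Its 326 against 2 counts gave a pooled ratio of 30.1 (95% interval 8.26 to 249). Without old control 1 its 36 against 2 counts gave a ratio of 8.90 (2.29 to 76.3). Both ratios were partly set by the filter on low counts, as above. H2-DMa was at 1.36 (SE 0.99), and H2-DMb2 at -0.76 (SE 0.99), the only member below 0. With old control 1 left out these were 0.45 (SE 1.17) and -1.60 (SE 1.17).

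In hets no member passed between the ages, and 0.00943% of all tested genes did (1 gene). None of the 9 had an unadjusted p under 0.05, against 666 of all tested genes. DESeq2 and limma-voom called 0 members, against 15 and 1 of all tested genes. H2-DMb1 came nearest, at 0.87 (SE 0.45, adjusted p = 0.821 by edgeR's quasi-likelihood test), with 69.8 ± 26.2 CPM (SD, n = 3) in old hets and 38.3 ± 18.4 CPM in young hets. H2-DMa was at 1.76 (SE 1.02), H2-Aa at 1.46 (SE 1.02), Ctss at 0.80 (SE 0.77), and Cd74 and H2-Ab1 at 0.35 and 0.32. Several of these rested on old het 2: without it H2-DMa came to 0.08 (SE 1.19), H2-Aa to 0.48 (SE 1.21) and H2-DMb1 to 0.52 (SE 0.49). H2-Eb1 was at 2.56 (SE 1.34), Ciita at -1.07 (SE 1.67) and H2-DMb2 at -0.32 (SE 1.01).

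Other genes of the pathway were read in the same comparisons. Of 14 tested class II accessory and processing genes none passed in old or young hets against controls, and 1 rose in old against young controls, Tmem176b, at 3.92 (adjusted p = 0.0121 by edgeR's quasi-likelihood test), the list's median being 0.05. Tmem176b encodes an intracellular channel protein known from dendritic cells, and without old control 1 it came to 2.92 with an adjusted p of 0.120. Of 15 class II transcription genes 1 rose in old controls, Irf8, at 1.25 (adjusted p = 0.0492), the list's median being 0.45. Irf8 encodes a transcription factor of monocyte and dendritic cell progenitors, and came to 1.34 with an adjusted p of 0.0873 without old control 1. Rfx5, Rfxank and Rfxap, the subunits of the complex that binds the X box, were at 8.06, 7.14 and 7.42 CPM in old control 1 and did not pass in any of the 6 comparisons.

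Of 21 class I presentation genes 2 rose in old against young controls, the immunoproteasome subunits Psmb8 at 1.28 (adjusted p = 0.0386 by edgeR's quasi-likelihood test) and Psmb9 at 2.36 (adjusted p = 0.00893), with a list median of 0.54. Psmb9 kept its call without old control 1, at 2.27 (adjusted p = 0.0363), and Psmb8 did not, at 0.78 (adjusted p = 0.254). The class I list as a whole was at 10683 CPM in old control 1, within the 8372 to 13213 CPM of the other libraries.

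Among markers of other cells, 3 of 8 tested B cell genes fell in old against young controls, where the 4 members rose. These were Ebf1 at -3.37, Pax5 at -4.27 and Vpreb1 at -2.43, B lineage genes whose adjusted p-values were 0.00221, 0.00752 and 0.00585 by edgeR's quasi-likelihood test, and all 3 calls remained without old control 1. Of 11 stem and multipotent progenitor genes Hlf and Meis1 rose, at 3.33 and 2.17 (adjusted p = 0.0135 and 0.0452), and neither was called without old control 1 (adjusted p = 0.245 and 0.850). Of 9 monocyte and macrophage genes Ms4a6c rose by 1.67 and F13a1 fell by 1.69, and none of 7 dendritic cell, 11 erythroid and 4 T and NK cell genes passed. Of 12 neutrophil genes Gfi1 and Prtn3 rose, at 2.83 and 2.23, and Camp fell by 2.84. With old control 1 left out the calls of Ms4a6c, Gfi1, Prtn3 and Camp remained and that of F13a1 was lost (adjusted p = 0.117). In the het comparisons the single call in these lists was Gfi1, which encodes a repressor of the granulocyte line and rose by 2.85 in young hets (adjusted p = 0.0477).

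Finally, the genes whose level ran most like that of Cd74 over the 12 libraries were ranked by Spearman's rho among 10603 tested genes. Lck, a kinase of T cells, came first, with rho 0.956 (permutation p = 2e-05, adjusted p = 0.106) and Pearson's r 0.892 (permutation p = 1e-05, adjusted p = 0.0530), the second p being the smallest that 100000 permutations can give. Without old control 1 and old het 1, the 2 libraries farthest from the median of Cd74, r was 0.901. Lck was low, at 22.99 CPM in old control 1 and at most 12.4 CPM elsewhere. Ehd3 and Dntt followed, with rho 0.860 and 0.846, and then Rnf11, Orc5, Dync1li2, Smyd2 and 9830001H06Rik, all at adjusted permutation p-values of 0.870. None of the 10603 relations passed after adjustment. By rho H2-Aa was the member nearest to Cd74, at 0.767 (permutation p = 0.00454, adjusted p = 0.870) and r 0.761, which fell to 0.516 without old control 1. By r it was H2-Eb1, with r 0.802 (permutation p = 0.00326, adjusted p = 0.4999) and rho 0.587, and with r 0.531 without old control 1. H2-DMb1 and Ctss had rho 0.147 and 0.0699.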

How the data were processed

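RNA counts per gene symbol, not normalized, were deposited by the authors in 1 table of 33924 genes and 12 libraries. Build mm9, the aligner STAR 2.4, the counter HTSeq 0.6.1 and DESeq2 are named, without roles, per the submitters' processing notes; for the annotation, the strand and molecular identifiers nothing is given in the sources used here, and reads of overlapping, antisense or near-identical genes are uncertain. Genes passing filterByExpr (minimum count 10, minimum total 15; 10604 genes, all 9 members) were tested in 1 fit of the 4 groups without covariates by edgeR 4.0.16 in R 4.3.3, with TMM scaling, quasi-likelihood F tests and Benjamini-Hochberg adjustment over all tested genes at 0.05. The SE is the log2 change divided by the square root of F. CPM are counts over TMM-scaled totals of tested genes. Intervals and floors cover counting error only. Relations were tested in Python 3.11.15 with 100000 permutations of libraries. Alternatives used DESeq2 1.42.0, limma-voom 3.58.1, other scalings, filters and covariates, and each library left out. The steps were tested on simulated counts. Members, lists and tests were chosen with earlier results of these data known. Named were all members, listed genes past the threshold, defining markers, and the 8 genes most like Cd74; not every gene so named is printed.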

Additional observations from a re-analysis of the deposited data

How the results depend on the processing

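The count of members called in old control against young control, 4 of 9, was 0 with limma-voom, 2 with the compared groups alone, 1 with Xist in the fit, 0 with mitochondrial rRNA in the fit and, chosen after seeing the data, 0 with both old control 1 and young control 3 left out. It ran from 0 to 4 when 1 library was left out. Without the filter on low counts 2 members, Cd74 and H2-Aa, were called in old het against old control (adjusted p = 0.0298 by edgeR, 11 calls among 18849 genes) and 1, H2-Ab1, in the difference between the effects (adjusted p = 0.0456). The causes of these shifts were not tested. DESeq2 gave no adjusted p to any member for the averaged effect.

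Single members changed sign as follows, none of them called on either side; the causes were not tested. H2-Eb1 is left out of the het effects that include young controls, since no fold is given for it there. In young het against young control H2-Aa was 0.0090 with total counts only, 0.026 with Xist and 0.67 without old control 1 and young control 3; H2-DMb2 was 0.10 in the last setting; Ciita was -1.13 with limma-voom and -0.30 with mitochondrial rRNA. With 1 library left out H2-Aa ran from -0.90 to 0.87, H2-DMb2 from -2.08 to 0.12, Ciita from -4.01 to 5.53 and Ctss from -0.24 to 1.48. In old het against old control Ctss was 0.27 with Xist. In the averaged effect H2-Ab1 was 0.10 with limma-voom and 1.64 without both libraries, and ran from -0.79 to 0.71, Ciita from -4.05 to 0.74 and Ctss from -0.23 to 0.65. In the difference of effects H2-DMa was -0.26 and H2-DMb2 -0.59 with limma-voom, and H2-DMb2 -0.21 without both libraries. Cd74 ran from -2.67 to 0.25, H2-DMa from -1.29 to 1.31, H2-DMb2 from -1.05 to 1.29 and Ctss from -1.68 to 0.027. In old control against young control H2-DMa was -1.77 with mitochondrial rRNA, and H2-DMb2 was 0.32 with limma-voom and 0.22 with Xist and ran from -1.60 to 0.70. In old het against young het Xist gave -0.43 for Cd74, -3.29 for H2-Eb1, 0.92 for H2-DMb2 and -0.44 for Ctss, and limma-voom gave 1.12 for Ciita. There Cd74 ran from -0.065 to 1.36, H2-Ab1 from -0.10 to 1.19, H2-DMb2 from -0.70 to 0.35 and Ciita from -1.90 to 4.27.

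No paired analysis was possible because the numbers of the libraries, given in order within a group, pair no samples. The floor of 3 counts in the shallowest library stood for more than the level of H2-Eb1 or Ciita in most others. What the 0 counts of H2-Eb1 and the 2 counts of Ciita in young controls can show is therefore limited by depth.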
